A study of Mus musculus with 42 samples.

Results

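Collagen genes were measured in Gli1-tdTomato+ stromal cells of the mouse colon. A gene was a member when its symbol was Col, a number, the letter a and a second number, and 41 of the 17647 genes listed in any of the 4 stromal tables met this rule. Of these 41 genes, 37 were listed in all 4 tables. A member was tested in a table when its mean normalized count over the 4 libraries of that table was at least 10. This kept 38 of 39 listed members for proximal GS4T, 37 of 41 for distal GS4T, 38 of 40 for proximal GA3T and 38 of 38 for distal GA3T, so that 39 were tested in at least 1 table and 35 in all 4. Col9a2 and Col25a1 were below the limit wherever they were listed, Col6a6 and Col26a1 only for distal GS4T and Col10a1 only for proximal GA3T. Col10a1 was not listed for distal GA3T, and Col11a1 was not listed for proximal GS4T.

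The series holds 42 libraries, and the 12 stromal libraries used here were made from sorted tdTomato+ cells. There were 2 libraries for each of 3 genotypes and each of 2 segments, the proximal and the distal colon. All mice of these 12 libraries carried Gli1-CreERT2, a Cre made where Gli1 is active and switched on by tamoxifen, together with a Rosa26-tdTomato reporter. All received tamoxifen, 100 µl of 20 mg/ml on each of 5 days. GWTT mice (Gli1-CreERT2;Rosa26-tdTomato) kept both target genes and were the controls, GS4T mice also carried Smad4fl/fl, and GA3T mice also carried Alk3fl/fl, a gene that the tables list as Bmpr1a. Cells were taken at day 30, and the study used male and female mice 2 to 4 months old. Goblet cells of control mice were read for comparison, in 2 libraries per segment of sorted Muc2-mCherry+ cells. Those GWTM2 mice carried Gli1-CreERT2 and Muc2-mCherry, kept both target genes, and had the same tamoxifen and day. Alk3 is a BMP receptor and Smad4 carries its signal, and that of TGF-β, to the nucleus. The comparison of each knockout with GWTT asked which collagen genes change when 1 of these signaling genes is targeted in these cells. The GS4T comparison does not separate BMP from TGF-β signaling. Deletion could occur only in cells in which Gli1 was active and in their descendants. Total reads per library ranged from 14222902 in distal GS4T replicate 2 to 23686940 in distal GA3T replicate 1. The labels do not say whether the 2 libraries of a group came from separate mice, and the p-values measure only the spread between libraries.

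Collagens are secreted proteins in which chains wind around each other into a rope-like helix, and they are the main structural proteins of connective tissue. Fibrillar collagens bear tension in the lamina propria and submucosa, type IV networks form the sheet under epithelium, vessels and muscle, and smaller classes decorate fibrils, anchor basement membranes or span the cell membrane. Fibroblasts are the main source of fibrillar collagen in the gut wall.

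The targeted genes were read first, as CPM (counts-per-million of the library). Smad4, the shared partner of receptor-activated SMADs, was at 94.9 and 101 CPM in proximal GWTT and at 43.3 and 48.9 in proximal GS4T. In the distal colon it was at 109 and 105 CPM in GWTT and at 41.5 and 70.1 in GS4T. The GS4T libraries were below the GWTT libraries in both segments, with a log2 fold change of -1.09 proximally (limma, adjusted p = 0.0101) and of -0.96 distally (adjusted p = 0.0424). The distal change was under the log2 fold change of 1 in size that a call needed. Bmpr1a was at 166 and 185 CPM in proximal GWTT, 125 and 105 in proximal GA3T, 179 and 189 in distal GWTT, and 124 and 106 in distal GA3T. Every GA3T library was below every GWTT library, but neither change passed the test, at -0.61 proximally (adjusted p = 0.12) and -0.69 distally (adjusted p = 0.101). In the other knockout Smad4 was at 86.7 to 106 CPM (GA3T) and Bmpr1a at 151 to 176 (GS4T), with neither called.

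Some libraries stood apart from their group in genes outside the collagens. Gli1, whose activity drives the Cre, was at 1.40 CPM in proximal GS4T replicate 2 and at 1.98 in proximal GA3T replicate 2, against 38.0 to 99.6 CPM in the other 10 libraries. Xist, the RNA of the inactive X chromosome, was at 0.428 CPM in proximal GWTT replicate 1, 0.168 in proximal GA3T replicate 1 and 0.296 in distal GA3T replicate 1, and at 998 to 1649 CPM in the other 9. Xist is made in female and not in male cells, so the 2 libraries of each of these 3 groups came from mice of different sex, while all libraries of proximal GS4T, distal GS4T and distal GWTT were high in Xist. By this measure the sexes were balanced in proximal GA3T and distal GS4T against their controls, and not in proximal GS4T, in distal GA3T, between the GWTT segments or between the knockouts. The labels do not give it for each library. Counts of collagens that passed the test without these libraries, an alternative chosen after seeing the data, were computed in a joint fit and stand beside the counts below.

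Markers of other cell types were read in every library, since the labels give the tissue of the sorted cells as intestinal epithelium. All 8 stromal fibroblast markers were detected, and their summed level was 17426 and 16950 CPM in proximal GWTT, 7503 and 9772 in proximal GS4T, 12236 and 8468 in proximal GA3T, 11025 and 10928 in distal GWTT, 8008 and 7186 in distal GS4T, and 8899 and 7275 in distal GA3T. Dcn, a proteoglycan that coats collagen fibrils, was the most abundant of them at 2708 to 11220 CPM, and the sum was lower in every knockout library than in the GWTT libraries of its segment. Without Dcn the other 7 markers overlapped between distal GS4T (5105 and 4478 CPM) and distal GWTT (5224 and 4894), and the other knockout groups lay below their controls. All 8 epithelial markers were detected too, and summed to 25.1 and 705 CPM in proximal GWTT, 1599 and 2323 in proximal GS4T, 685 and 1075 in proximal GA3T, 95.3 and 252 in distal GWTT, 903 and 2021 in distal GS4T, and 1271 and 557 in distal GA3T. Krt8 led this list at 4.22 to 603 CPM, and only proximal GA3T overlapped its control in the sum, though not in the other 7 markers without Krt8 (482 and 766 CPM against 20.9 and 479).

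The 7 smooth muscle and pericyte markers summed to 576 and 465 CPM in proximal GWTT, 1351 and 1147 in proximal GS4T, 852 and 1233 in proximal GA3T, 1147 and 1108 in distal GWTT, 1895 and 1165 in distal GS4T, and 1270 and 1110 in distal GA3T, with Acta2 the most abundant at 162 to 1025 CPM. The 12 immune markers summed to 1730 and 3023 CPM in proximal GWTT, 1620 and 1605 in proximal GS4T, 1460 and 2042 in proximal GA3T, 4000 and 5208 in distal GWTT, 1809 and 1485 in distal GS4T, and 2533 and 2505 in distal GA3T, led on average by Jchain of plasma cells. The 6 endothelial markers summed to 176 and 185 CPM in proximal GWTT, 82.8 and 137 in proximal GS4T, 132 and 83.3 in proximal GA3T, 134 and 126 in distal GWTT, 49.8 and 229 in distal GS4T, and 122 and 57.9 in distal GA3T, led on average by Tek. These sums depended on the leading gene. Without Acta2 the other 6 muscle markers were above their controls in the proximal knockouts (398 to 577 CPM against 385 and 303), overlapped them in distal GS4T (870 and 561 against 722 and 702) and were below them in distal GA3T (636 and 466). Without Jchain the other 11 immune markers were above their controls in every knockout library, at 595 to 1205 CPM against 196 and 297 proximally and at 641 to 1702 against 607 and 503 distally, whereas the full sum was below its control in all groups but proximal GA3T. Without Tek the other 5 endothelial markers were above their controls proximally (34.9 to 104 CPM against 30.0 and 28), where the full sum was below, and overlapped them distally. The 3 mesothelial markers summed to 4.81 to 17.4 CPM and the 2 markers of interstitial cells of Cajal to 20.6 to 56.3, led on average by Wt1 and Ano1. The 4 enteric glia markers summed to 2.53 to 9.51 CPM. Ms4a1, Upk3b and Sox10 were at 0 in 1 library each, and none of the markers in these lists was at 0 in every library. In bulk RNA, fewer cells of a type and less RNA per cell cannot be told apart, and the part of these marker levels in the collagen results was not tested.

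Collagen reads made up 5.49% and 4.74% of the library in proximal GWTT, 7.93% and 8.49% in proximal GS4T, and 8.4% and 9.18% in proximal GA3T. In the distal colon the share was 6.96% and 5.53% in GWTT, 9.15% and 9.13% in GS4T, and 7.54% and 9.55% in GA3T. All knockout libraries lay above the GWTT libraries of their segment. In the sorted Muc2-mCherry+ goblet cells of control mice, the collagens listed, 23 of the 41 members proximally and 13 distally, made up 0.00473% to 0.00795% of reads, while the epithelial marker Epcam reached 1679 to 1873 CPM there.

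**Figure D1:**
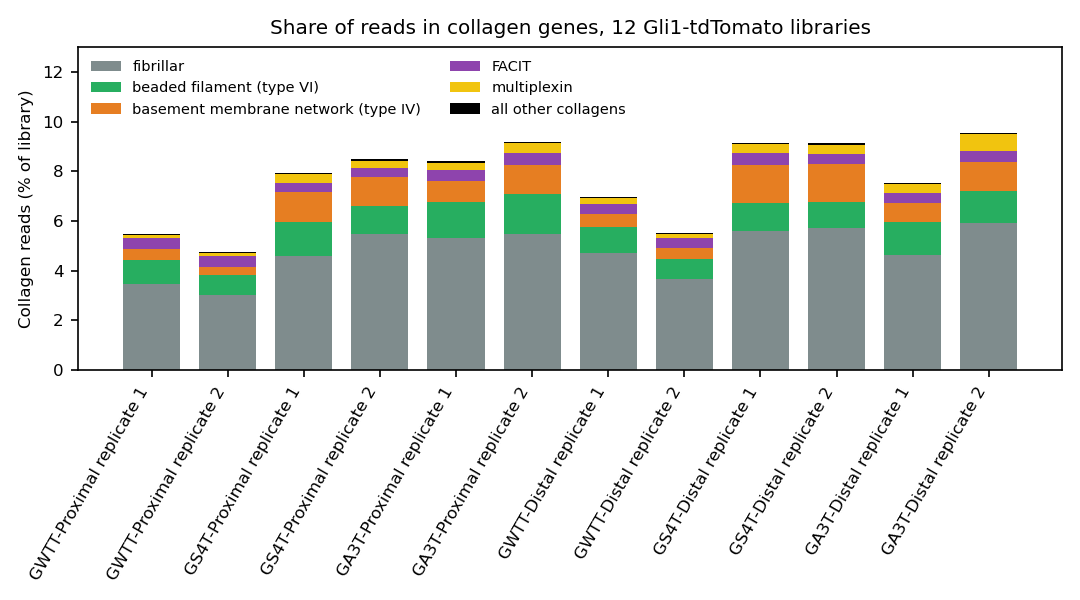
Share of reads in collagen genes (percent of the library, stacked by collagen class) in each of the 12 Gli1-tdTomato libraries. GWTT libraries lie between 4.74% and 6.96% and knockout libraries between 7.54% and 9.55%, with the type IV segment at 0.322% to 0.557% in GWTT and 0.776% to 1.51% in the knockouts.

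Per kilobase of exon, the mean level over the 4 GWTT libraries was 1762 CPM for Col3a1, the chain of type III fibrils, with 1061 for Col1a1 and 700 for Col1a2, the chains of type I. Col6a1 of the beaded filaments lay between these 2 at 833 CPM per kb, and its partner Col6a2 was at 390. Below them were the fibril-associated Col14a1 (352), the basement membrane chains Col4a1 (330) and Col4a2 (225), the fibril-initiating Col5a1 (238), and Col15a1 (168), which links basement membrane to stroma. Col15a1 was followed by Col5a2 at 167 CPM per kb. Col1a1, Col1a2 and Col3a1 alone took 2.71% to 4.15% of reads in GWTT and 3.9% to 5.16% in the knockouts. The level per kilobase of Col1a1 relative to Col1a2, whose products join in type I collagen, was 1.38 and 1.53 in proximal GWTT, 1.97 and 1.92 in proximal GS4T and 1.65 and 1.83 in proximal GA3T. Distally this ratio was 1.64 and 1.5 in GWTT, 2.18 and 2.48 in GS4T and 1.45 and 1.74 in GA3T. It was higher in the 4 GS4T libraries and in both proximal GA3T libraries than in any GWTT library. Distal GA3T overlapped its control, and no test was made of the ratio. For Col4a1 over Col4a2 the same ratio stayed between 1.36 and 1.57 in all 12 libraries.

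In each knockout comparison a gene was called when limma gave an adjusted p under 0.05 and a log2 fold change of at least 1 in size, on the scale of log2(normalized count + 1), which understates changes of low genes. In proximal GS4T, 13 of 38 collagens passed, against 9.61% of the 15319 genes tested, and 8 were higher and 5 lower than GWTT, against 5.25% and 4.36% of genes. The median log2 fold change of collagens was 0.42, against 0.02 over all genes. In distal GS4T, 15 of 37 passed, against 14% of 15262 genes, and 9 were higher and 6 lower, against 7.88% and 6.08%, with a median of 0.30 against 0.00. Both directions were thus present among the collagens of GS4T, whose medians lay above those of all genes. Some members passed the limit on mean count through 1 group alone, with a mean under 10 in the other. These were Col4a3, Col6a6 and Col10a1 in proximal GS4T, Col4a3, Col10a1 and Col11a1 in distal GS4T, Col11a1 in proximal GA3T, and Col11a1 and Col26a1 in distal GA3T. Such a member has to differ between the groups, so the counts are a description, and 2 of the 13 (Col4a3 and Col6a6) and 2 of the 15 (Col10a1 and Col11a1) were of this kind.

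In proximal GA3T, 3 of 38 collagens passed and all 3 were higher, against 0.358% of 15346 genes (0.345% higher), with a median log2 fold change of 0.86 against 0.01 over all genes. In distal GA3T limma called 0 of 38, as it called 0% of 15414 genes, and the collagen median was 0.38 against 0.01. By edgeR 0 collagens passed in either GA3T comparison, by DESeq2 16 proximally (14 higher) and 8 distally (all higher), and at an unadjusted p under 0.05 there were 19 and 8. Over all genes edgeR called 0%, DESeq2 6.31% proximally (4.41% higher) and 5.03% distally (3.97% higher), and an unadjusted p 9.46% and 7.77%. With replicate number as a block limma called 7 collagens proximally (1.65% of all genes) and 5 distally (0.402%). GS4T and GA3T were each set against the same GWTT libraries, so their values are given side by side and are not independent of each other.

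Left-out libraries moved these counts, which are given with the share of all genes called by the same fit. Without proximal GS4T replicate 1, 3 collagens passed in proximal GS4T (0.775%), and without replicate 2, 8 did (2.35%). Distal GS4T gave 9 without distal GWTT replicate 1 (7.82%) and 7 without distal GWTT replicate 2 (8.12%). Proximal GA3T gave 0 without proximal GWTT replicate 1 (0%), 2 without proximal GWTT replicate 2 (0.732%), 6 without proximal GA3T replicate 1 (1.52%) and 0 without proximal GA3T replicate 2 (0.00654%). Distal GA3T gave 8 without distal GA3T replicate 1 (4.87%) and 1 without distal GA3T replicate 2 (0.0456%). A joint fit of all 12 libraries, in which Col10a1 and Col11a1 were not tested, called 14 collagens in proximal GS4T (11.5%), 14 in distal GS4T (13.2%), 15 in proximal GA3T (4.55%) and 5 in distal GA3T (0.48%). In this fit 10 were higher and 4 lower in proximal GS4T, and 7 higher and 7 lower in distal GS4T. In that fit without the 2 libraries low in Gli1, 12 collagens passed in proximal GS4T (6.66%), 15 in distal GS4T (11.5%), 4 in proximal GA3T (0.296%) and 3 in distal GA3T (0.237%). Without the 3 libraries low in Xist the counts were 10 (8.73%), 13 (14.9%), 11 (5.45%) and 6 (4.29%).

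**Figure D2:**
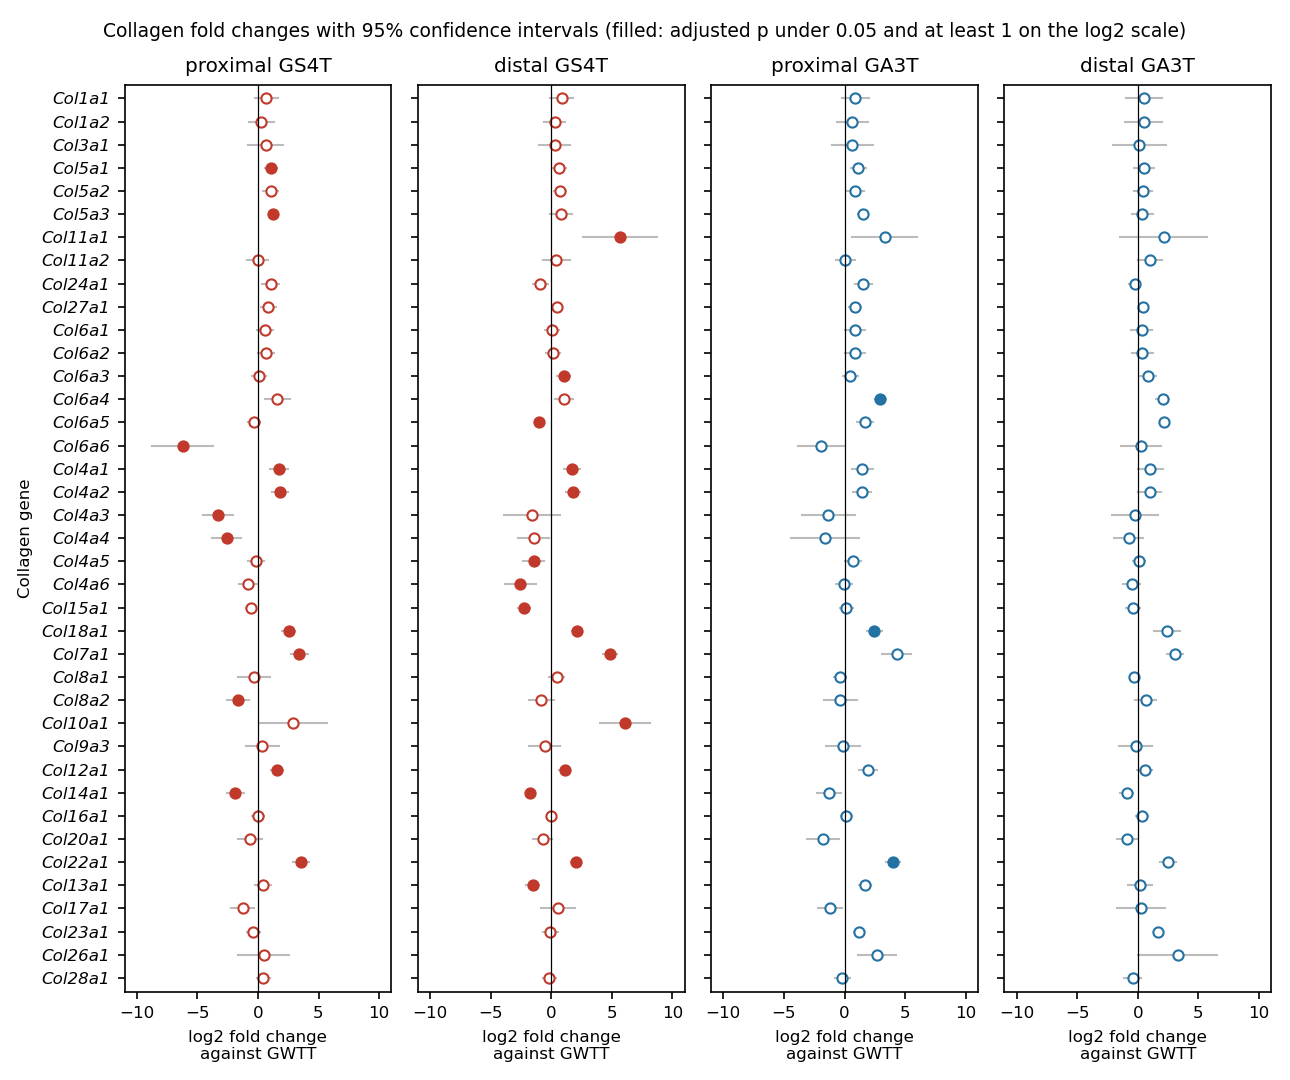
Log2 fold change against GWTT (points) with 95% confidence intervals (lines) for each tested collagen gene in proximal GS4T, distal GS4T, proximal GA3T and distal GA3T, with genes ordered by class and filled points for those called by limma. Col7a1, Col18a1 and Col22a1 lie to the right of 0 in all 4 panels, while Col14a1 lies to the left.

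The network collagens of the basement membrane held 4 called members of 6 in proximal GS4T, against 9.61% of all genes, and 4 of 6 in distal GS4T, against 14%, with 2 higher and 2 lower in each. The proximal count includes Col4a3, which passed the limit on mean count through the GWTT libraries. Col4a1, the chief chain of nearly all basement membranes, was at 2443 and 1783 CPM in proximal GWTT, 6948 and 7064 in proximal GS4T and 4887 and 6757 in proximal GA3T. Distally Col4a1 was at 3178 and 2462 CPM in GWTT, 9172 and 9322 in GS4T and 4612 and 7234 in GA3T. Every knockout library lay above every GWTT library, and the distal GS4T pair was the highest. Col4a1 rose in GS4T with a log2 fold change of 1.74 ± 0.28 (SE, n = 2 libraries per group) proximally (limma, adjusted p = 0.0214) and of 1.74 ± 0.27 distally (adjusted p = 0.00982). In GA3T it was at 1.47 proximally (adjusted p = 0.12) and 1.04 distally (adjusted p = 0.271). Its partner Col4a2, with which it forms the common trimer, followed at 1.82 (adjusted p = 0.0142) and 1.77 (adjusted p = 0.006) in GS4T and 1.44 and 0.99 in GA3T. These GA3T values were not called by limma or edgeR. DESeq2 called both genes in both GA3T comparisons, and the joint fit of all 12 libraries called both in proximal GA3T only. In goblet cells of control mice Col4a1 did not exceed 1.5 CPM and Col4a2 did not exceed 0.85.

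The other 4 type IV chains, which build the more specialised networks of kidney, eye and smooth muscle, had log2 fold changes below 0 in both GS4T comparisons. Col4a3 was at 5.81 and 3.95 CPM in proximal GWTT and at 0.396 and 0.466 in proximal GS4T, and Col4a4 at 11.4 and 5.75 CPM in proximal GWTT and at 1.13 and 1.52 in proximal GS4T. Both fell there, Col4a3 with a fold change of -3.31 on the log2 scale (adjusted p = 0.0172) and Col4a4 with -2.58 (adjusted p = 0.0286), on 7 and 8 reads of Col4a3 and 20 and 26 of Col4a4 in the GS4T libraries. Distally their log2 fold changes in GS4T were -1.59 and -1.44, with adjusted p-values of 0.27 and 0.0942. Col4a6 was at 161 and 127 CPM in distal GWTT, 44.7 and 13 in distal GS4T and 136 and 74.9 in distal GA3T. Col4a5 was at 320 and 298 CPM in distal GWTT, 168 and 74.2 in distal GS4T and 411 and 263 in distal GA3T. These 2 fell in distal GS4T, by -2.54 (adjusted p = 0.0234) and -1.45 (adjusted p = 0.0349), with the lower value of each gene in replicate 2, while GA3T gave -0.51 and 0.08. Both genes are on the X chromosome, and the 4 libraries of distal GS4T and its control were all high in Xist. edgeR and DESeq2 gave Col4a5 adjusted p-values of 0.0511 and 0.0509. Proximally Col4a6 was at -0.82 and Col4a5 at -0.19 in GS4T, neither called with all libraries. limma called Col4a6 there without proximal GWTT replicate 2.

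Several type IV calls changed when a library was left out. Without proximal GS4T replicate 1 the log2 fold changes were 1.79 for Col4a1, 1.87 for Col4a2, -3.18 for Col4a3 and -2.35 for Col4a4, and none of the 4 was called. Without proximal GS4T replicate 2 they were 1.69, 1.78, -3.45 and -2.81, again with none called. Col4a1 was also not called without proximal GWTT replicate 2 (1.5), nor Col4a4 without proximal GWTT replicate 1 (-2.07). In distal GS4T, Col4a1 was not called without GWTT replicate 1 (1.94) or GWTT replicate 2 (1.55), and Col4a2 not without GWTT replicate 2 (1.57). Col4a6 lost its call without distal GWTT replicate 1 (-2.37) or replicate 2 (-2.72), and Col4a5 without distal GWTT replicate 1 (-1.39), distal GWTT replicate 2 (-1.51) or distal GS4T replicate 2 (-0.87). In the joint fit of proximal GS4T, Col4a3 was not called without the libraries low in Gli1 (-3.42), without those low in Xist (-3.04) or with a term for Xist (-2.57), while Col4a4 was already not called with all 12 libraries (-2.58), nor without those low in Xist (-2.08) or with the term (-1.83).

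The multiplexins Col18a1 and Col15a1 both sit where basement membrane meets stroma, and Col18a1 is the precursor of endostatin. Col18a1 was at 523 and 434 CPM in proximal GWTT, 3184 and 2380 in proximal GS4T and 2164 and 3124 in proximal GA3T. Distally it was at 813 and 699 CPM in GWTT, 3292 and 3337 in GS4T and 2818 and 5922 in GA3T. All 8 knockout libraries exceeded all 4 GWTT libraries, and distal GA3T replicate 2 was the highest. Col18a1 rose in proximal GS4T (2.53 ± 0.20, adjusted p = 0.00582), distal GS4T (2.16 ± 0.17, adjusted p = 0.00165) and proximal GA3T (2.46 ± 0.24, adjusted p = 0.0496), and its distal GA3T value was 2.43 ± 0.43 (adjusted p = 0.115). DESeq2 and the joint fit of all 12 libraries called that distal GA3T change, and edgeR did not. The GS4T calls held without any 1 library. The proximal GA3T call was lost without proximal GWTT replicate 1 (2.61), proximal GWTT replicate 2 (2.31) or proximal GA3T replicate 2 (2.21), with a pseudocount of 0.1 in place of 1 (2.46), with upper-quartile rescaling (2.43), and in the joint fit without the libraries low in Gli1 (2.18). In goblet cells of control mice Col18a1 was at 1.63 to 3.02 CPM.

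Col15a1 was at 791 and 693 CPM in proximal GWTT, 462 and 529 in proximal GS4T and 930 and 704 in proximal GA3T. In the distal colon Col15a1 was at 1599 and 1193 CPM in GWTT, 333 and 255 in GS4T and 1055 and 1037 in GA3T. It was thus lowest in distal GS4T, where it fell by 2.23 on the log2 scale (adjusted p = 0.00229), a call that held without any 1 library. The other log2 fold changes were -0.59 in proximal GS4T (adjusted p = 0.0633), 0.14 in proximal GA3T and -0.41 in distal GA3T. The difference between its proximal and distal GS4T fold changes was 1.66 (adjusted p = 0.0991 by limma, 4.58e-05 by DESeq2).

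Col7a1 forms the anchoring fibrils that fasten an epithelial basement membrane to the stroma beneath. It was at 7.95 and 6.86 CPM in proximal GWTT, 105 and 59.2 in proximal GS4T and 90.4 and 238 in proximal GA3T. Distally it was at 9.42 and 5.84 CPM in GWTT, 220 and 207 in GS4T and 61.8 and 65.0 in GA3T. No knockout library came near the control range. Col7a1 rose by 3.40 ± 0.28 in proximal GS4T (adjusted p = 0.00613) and by 4.86 ± 0.24 in distal GS4T (adjusted p = 0.000609), and both calls held without any 1 library. The GA3T values of 4.31 ± 0.46 and 3.08 ± 0.26 had adjusted p-values of 0.0573 and 0.0669, and Col7a1 was called proximally without proximal GA3T replicate 1 (4.99) and distally without distal GA3T replicate 1 (3.17). The joint fit of all 12 libraries (4.30 and 3.09) and DESeq2 called it in both GA3T comparisons, and edgeR in neither. A pseudocount of 10 gave a call proximally (4.22). Goblet cells of control mice held 2 to 2.71 CPM of Col7a1, a gene that epithelial cells also make, and the part of the epithelial marker reads in the stromal values was not tested.

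Collagens with interrupted helices attach to fibrils and change their surface and spacing. Col22a1, known from tissue junctions, was at 4.46 and 3.71 CPM in proximal GWTT, 61.9 and 39.9 in proximal GS4T and 55.7 and 77.5 in proximal GA3T. Distally Col22a1 was at 9.72 and 9.06 CPM in GWTT, 39.3 and 37.7 in GS4T and 43.8 and 64.6 in GA3T. The groups did not overlap in either segment, and the GWTT level was lower proximally than distally in both libraries. Col22a1 rose in proximal GS4T (3.59 ± 0.26, adjusted p = 0.00523), distal GS4T (2.05 ± 0.16, adjusted p = 0.00166) and proximal GA3T (4 ± 0.23, adjusted p = 0.0348), and reached 2.49 ± 0.25 in distal GA3T (adjusted p = 0.0669). Its call was lost in proximal GS4T without proximal GS4T replicate 1 (3.30), and in proximal GA3T without proximal GWTT replicate 1 (4.15) or proximal GA3T replicate 2 (3.78). It was called in distal GA3T without distal GA3T replicate 1 (2.83) and in the joint fit of all 12 libraries (2.50).

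Col12a1, which bridges fibrils and is common where tissue is under load, was at 696 and 695 CPM in proximal GWTT, 2450 and 1766 in proximal GS4T and 2010 and 3374 in proximal GA3T. Distally Col12a1 was at 1613 and 1608 CPM in GWTT, 3738 and 3261 in GS4T and 2181 and 2627 in GA3T. The knockouts were above their controls throughout, and DESeq2 and the joint fit of all 12 libraries called Col12a1 in proximal GA3T. Col12a1 rose in GS4T, by 1.58 proximally (adjusted p = 0.0115) and by 1.14 distally (adjusted p = 0.0112), and was at 1.91 and 0.57 in GA3T (adjusted p = 0.0735 and 0.307). These calls were lost without proximal GS4T replicate 1 (1.37) and, distally, without GWTT replicate 1 (1.15) or GWTT replicate 2 (1.13).

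Col14a1, its close relative, which regulates fibril growth, was at 3020 and 3347 CPM in proximal GWTT, 702 and 1111 in proximal GS4T and 1846 and 904 in proximal GA3T, and at 1766 and 1747 CPM in distal GWTT, 513 and 489 in distal GS4T and 1090 and 809 in distal GA3T. All knockout libraries but proximal GA3T replicate 1 were below all 4 GWTT libraries, and that library was below its own controls. Col14a1 fell in GS4T by 1.85 ± 0.28 proximally (adjusted p = 0.0183) and by 1.79 ± 0.13 distally (adjusted p = 0.0014), with -1.29 and -0.91 in GA3T (adjusted p = 0.172 and 0.144). The proximal call was lost without proximal GS4T replicate 1 (-1.49), while the distal GS4T call held without any 1 library, and Col14a1 was called in distal GA3T without replicate 1 of that group (-1.07). In the same libraries Dcn was at 10788 and 11220 CPM in proximal GWTT against 2936 to 6821 in the proximal knockouts. DESeq2 and the joint fit of all 12 libraries called Col14a1 in proximal GA3T. Of the remaining members of this class, Col16a1 had log2 fold changes between -0.04 and 0.34, and limma called neither Col9a3 nor Col20a1 in any of the 4 tables with all libraries. Col20a1 was at -1.79 in proximal GA3T (limma, adjusted p = 0.157), where DESeq2 and the joint fit of all 12 libraries (-1.80) called it, and limma called it in proximal GS4T without proximal GWTT replicate 2.

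**Figure D3:**
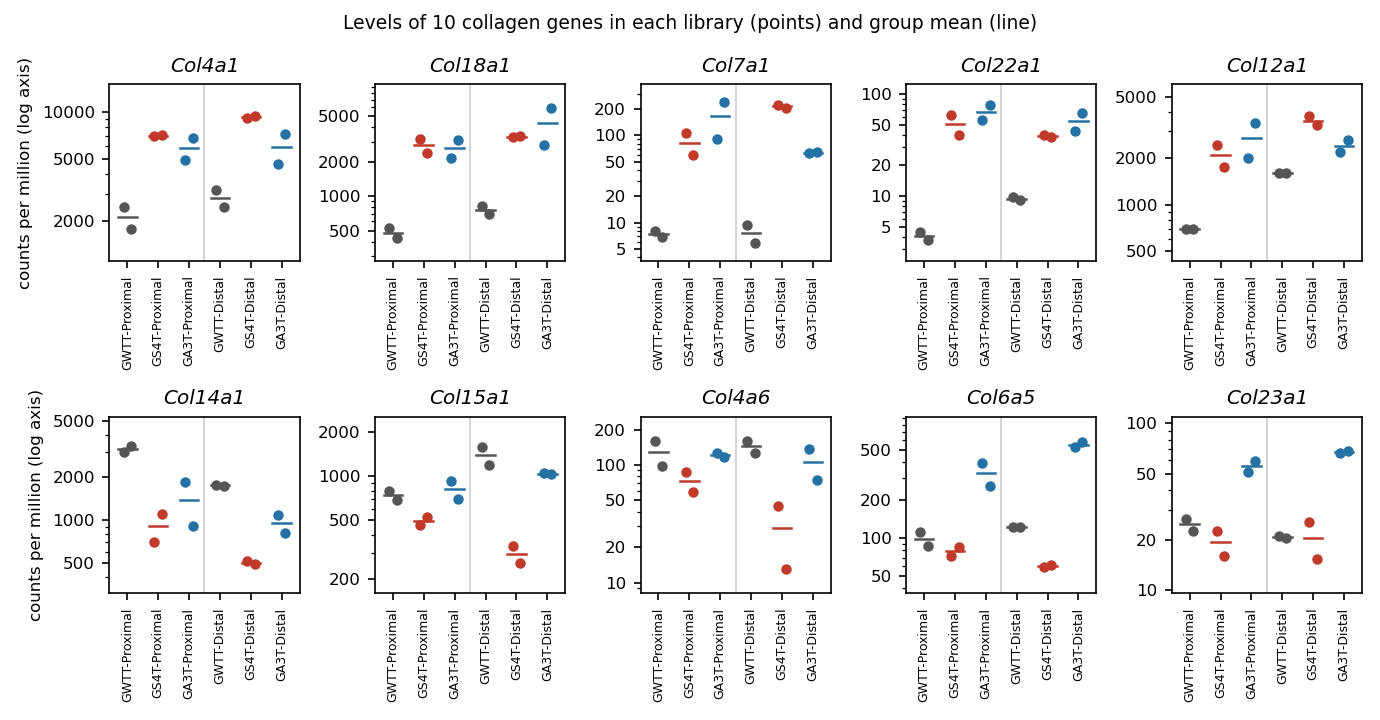
Levels of 10 collagen genes in CPM (log axis) in each library, with points for libraries, lines for group means, and GWTT in grey, GS4T in red and GA3T in blue. Col6a5 and Col23a1 are high in GA3T alone, at 262 to 577 and 50.8 to 68.6 CPM, while Col15a1 and Col4a6 are lowest in distal GS4T.

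Fibrillar collagens, the tensile fibers of the gut wall, held 2 called members of 9 in proximal GS4T (9.61% of all genes) and 1 of 10 in distal GS4T (14%), the latter being Col11a1, which passed the limit on mean count through the GS4T libraries. limma and edgeR called 0 of 10 in each GA3T comparison, while DESeq2 called 3 proximally (6.31% of all genes) and 0 distally (5.03%), and an unadjusted p gave 4 (9.46%) and 1 (7.77%). As a class they took 3.47% and 3.01% of reads in proximal GWTT, 4.6% and 5.46% in proximal GS4T, 5.3% and 5.48% in proximal GA3T, 4.72% and 3.65% in distal GWTT, 5.58% and 5.71% in distal GS4T and 4.63% and 5.91% in distal GA3T. Only distal GA3T overlapped its control in this share. Col1a1 was at 6774 and 6176 CPM in proximal GWTT, 9888 and 11198 in proximal GS4T, 11394 and 12661 in proximal GA3T, 8774 and 6139 in distal GWTT, 12131 and 14320 in distal GS4T, and 8262 and 13395 in distal GA3T. Its log2 fold changes of 0.70, 0.86, 0.90 and 0.51, in the order proximal GS4T, distal GS4T, proximal GA3T and distal GA3T, had adjusted p-values of 0.247, 0.155, 0.309 and 0.665. Col3a1 was at 15075 and 13322 CPM in proximal GWTT, 19651 and 25491 in proximal GS4T, 22289 and 21640 in proximal GA3T, and 18152 to 24725 CPM over the distal libraries of all genotypes. In the same order its log2 fold changes were 0.65, 0.30, 0.64 and 0.13, and those of Col1a2 were 0.28, 0.30, 0.64 and 0.50, and none of them was called. The most abundant fibrillar collagens therefore had fold changes above 0 in every comparison that did not exceed the spread between libraries at the thresholds used.

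Type V chains start fibrils and set their width. Col5a1 was at 1681 and 1509 CPM in proximal GWTT, 3532 and 3281 in proximal GS4T and 3200 and 3774 in proximal GA3T, and Col5a3 at 227 and 191 CPM in proximal GWTT, 499 and 490 in proximal GS4T and 530 and 665 in proximal GA3T. Both rose in proximal GS4T, Col5a1 by 1.09 (adjusted p = 0.0268) and Col5a3 by 1.24 (adjusted p = 0.0087), and Col5a2 at 1.05 had an adjusted p of 0.0506. DESeq2 and the joint fit of all 12 libraries called Col5a2 in proximal GS4T, and Col5a1 and Col5a3 in proximal GA3T. edgeR called none of these additional changes. Distally in GS4T the values were 0.67, 0.78 and 0.73, none called, and GA3T gave 1.13, 1.52 and 0.90 proximally and 0.49, 0.35 and 0.42 distally for Col5a1, Col5a3 and Col5a2. The Col5a1 call was lost without any 1 of the 4 proximal libraries, at 1.18 without GWTT replicate 1, 1.00 without GWTT replicate 2, 1.07 without GS4T replicate 1 and 1.11 without GS4T replicate 2, and it was not called in the joint fit without the libraries low in Gli1 (1.15). The Col5a3 call was lost without proximal GS4T replicate 1 (1.26) or replicate 2 (1.22), and in the joint fit without the libraries low in Gli1 (1.26), without those low in Xist (1.37) or with a term for Xist (1.27).

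Among the rarer fibrillar genes, Col11a1, a cartilage collagen, had 9 and 0 reads in distal GWTT and 383 and 64 in distal GS4T, which is 20.7 and 4.50 CPM in the knockout. It rose there (5.68, adjusted p = 0.0268), with a ratio of CPM of 50.9 and a counting interval of 26.6 to 112. Col11a1 passed the limit on mean count in that table through the GS4T libraries. Its call was lost without distal GWTT replicate 2 (4.04), without distal GS4T replicate 1 (4.60), with a pseudocount of 0.1 in place of 1 (7.40) and with DESeq2 (adjusted p = 0.0542). In GA3T its values were 3.30 proximally and 2.15 distally, on 18 and 25 and on 10 and 23 reads, neither called. Col24a1, a minor fibrillar chain, was at 22.6 and 17.4 CPM in proximal GWTT, 53.9 and 31.0 in proximal GS4T and 45.4 and 73.9 in proximal GA3T, but at 65.2 and 60.1 CPM in distal GWTT, 43.0 and 25.7 in distal GS4T and 63.6 and 42.5 in distal GA3T. Its log2 fold changes were 1.04, -0.89, 1.55 and -0.27 in the order given for Col1a1. None was called by limma in the main fits, while DESeq2 called the proximal change in both knockouts. The joint fit of all 12 libraries called Col24a1 in proximal GA3T, and a block for replicate number called it in proximal GS4T. In distal GS4T limma called it without distal GS4T replicate 1. Col27a1, another minor chain, had 0.87, 0.46, 0.87 and 0.39, and Col11a2 had -0.03, 0.43, 0.05 and 1.01, none called with all libraries. limma called Col27a1 in proximal GS4T without proximal GWTT replicate 2, as did the joint fit without the libraries low in Gli1.

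Type VI collagens form beaded filaments around cells. Their main chains Col6a1 and Col6a2 were close together, with log2 fold changes of 0.59 and 0.66 in proximal GS4T, 0.04 and 0.15 in distal GS4T, 0.85 and 0.89 in proximal GA3T, and 0.32 and 0.36 in distal GA3T, none called. Col6a1 was at 3075 to 6409 CPM and Col6a2 at 2631 to 5885 over all libraries, and their ratio per kilobase stayed between 1.97 and 2.27. Col6a3, the long chain of the same trimer, was at 1753 and 1345 CPM in distal GWTT, 3453 and 2788 in distal GS4T and 2626 and 2947 in distal GA3T. Col6a3 rose in distal GS4T (1.03, adjusted p = 0.0258), where it was not called without distal GWTT replicate 1 (1.23), distal GWTT replicate 2 (0.84) or distal GS4T replicate 1 (0.89). The other comparisons gave 0.12 in proximal GS4T, 0.47 in proximal GA3T and 0.85 in distal GA3T.

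The chains Col6a4, Col6a5 and Col6a6 can take the place of the long chain, and their genes lie next to each other. Col6a4 was at 37.8 and 34.3 CPM in proximal GWTT, 172 and 70.7 in proximal GS4T and 238 and 323 in proximal GA3T, and at 62.5 and 56.9 CPM in distal GWTT, 175 and 88.4 in distal GS4T and 213 and 294 in distal GA3T. It was highest in GA3T in both segments. Col6a4 rose in proximal GA3T (2.95 ± 0.17, adjusted p = 0.0348) but was not called without proximal GWTT replicate 1 (3.04) or proximal GA3T replicate 2 (2.75), and it was at 2.07 in distal GA3T (adjusted p = 0.0669), 1.61 in proximal GS4T (adjusted p = 0.0531) and 1.08 in distal GS4T (adjusted p = 0.0505). DESeq2 and a block for replicate number called Col6a4 in both GS4T comparisons and in distal GA3T, and edgeR in none of these. Col6a5 was at 112 and 86.7 CPM in proximal GWTT, 72.9 and 86.0 in proximal GS4T and 394 and 262 in proximal GA3T, and at 122 and 123 CPM in distal GWTT, 58.7 and 61.0 in distal GS4T and 534 and 577 in distal GA3T. The GA3T libraries were above and the GS4T libraries below their controls. Col6a5 fell by 1.02 in distal GS4T (adjusted p = 0.00314), a call lost without distal GS4T replicate 1 (-0.97). Its other log2 fold changes were -0.32 in proximal GS4T, 1.71 in proximal GA3T (adjusted p = 0.0735) and 2.17 ± 0.13 in distal GA3T (adjusted p = 0.0539). DESeq2 and the joint fit of all 12 libraries called Col6a5 in both GA3T comparisons, and edgeR in neither. In distal GA3T limma also called it with a pseudocount of 10, with upper-quartile rescaling and without either GA3T library.

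Col6a6 was lower than its neighbors, with 153 and 214 reads in proximal GWTT, 6 and 0 in proximal GS4T and 108 and 29 in proximal GA3T. It fell in proximal GS4T (-6.20, adjusted p = 0.02), where the ratio of CPM to the control was 0.0153 with a counting interval of 0.00557 to 0.0336. Col6a6 passed the limit on mean count in that table through the GWTT libraries. The call held without any 1 library, while a pseudocount of 0.1 in place of 1 gave -7.96 and no call. In distal GWTT Col6a6 had 23 and 10 reads, below the limit on the mean in the distal GS4T table, and its values in GA3T were -1.91 proximally (adjusted p = 0.231) and 0.27 distally. The counting intervals cover counting error only.

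Among the short-chain network collagens, Col10a1, known from growth plate cartilage, had 0 and 2 reads in distal GWTT and 211 and 62 in distal GS4T. It rose (6.10, adjusted p = 0.00694), with a ratio of 140 and a counting interval of 38.4 to 1161, and passed the limit on mean count through the GS4T libraries. In proximal GS4T it had 16 and 94 reads against 8 and 2 in GWTT, and the value of 2.86 had an adjusted p of 0.141 by limma. DESeq2 called Col10a1 there, where it also passed the limit on mean count through the GS4T libraries. Col8a2, a chain of vessel and eye matrix, was at 15.5 and 13.2 CPM in proximal GWTT and 3.40 and 5.95 in proximal GS4T, and fell (-1.66, adjusted p = 0.0403). It was not called without proximal GWTT replicate 1 (-1.53), proximal GS4T replicate 1 (-1.23) or proximal GS4T replicate 2 (-2.09), nor in the joint fit without the libraries low in Xist (-1.54) or with a term for Xist (-1.42), and its other values were -0.82, -0.35 and 0.64 in distal GS4T, proximal GA3T and distal GA3T. Its partner Col8a1 ranged from 142 to 419 CPM with no call when all libraries were used, and reached 45.6 CPM in goblet cells of control mice. limma called Col8a1 in proximal GS4T without proximal GS4T replicate 2.

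Transmembrane collagens keep a part of the chain inside the cell. Col13a1, found at cell adhesions, was at 15.4 and 15.0 CPM in distal GWTT, 4.86 and 5.41 in distal GS4T and 26.8 and 11 in distal GA3T, and fell in distal GS4T (-1.53, adjusted p = 0.00885). That call was lost without distal GWTT replicate 1 (-1.51) or replicate 2 (-1.56). Proximally it was at 7.34 and 7.60 CPM in GWTT, 8.89 and 11.3 in GS4T and 26.3 and 22.1 in GA3T, where GS4T was at 0.41 (adjusted p = 0.298) and GA3T at 1.69 (adjusted p = 0.0621) on the log2 scale. DESeq2 and the joint fit of all 12 libraries called Col13a1 in proximal GA3T. Col23a1 was at 26.8 and 22.7 CPM in proximal GWTT, 22.7 and 16 in proximal GS4T and 50.8 and 59.5 in proximal GA3T, and at 21.2 and 20.6 CPM in distal GWTT, 25.6 and 15.3 in distal GS4T and 66.4 and 68.6 in distal GA3T. The GA3T libraries stood above all others, at 1.16 (adjusted p = 0.0704) and 1.68 ± 0.13 (adjusted p = 0.0606), while GS4T was at -0.38 and -0.06. DESeq2 and the joint fit of all 12 libraries called Col23a1 in both GA3T comparisons, and edgeR in neither. Col17a1, the hemidesmosome collagen of epithelial cells, stayed at 0.76 to 5.5 CPM, with -1.24 in proximal GS4T (adjusted p = 0.0823) and -1.20 in proximal GA3T (adjusted p = 0.187).

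Neither remaining member, Col26a1 nor Col28a1, was called by limma. Col26a1 was at 3.28 in distal GA3T (adjusted p = 0.264), on 32 and 38 reads against 9 and 0 in distal GWTT, and passed the limit on mean count there through the GA3T libraries. Its value of 2.67 in proximal GA3T (limma, adjusted p = 0.121) was called by DESeq2. Col28a1 was at 13.2 to 41.7 CPM, with log2 fold changes from -0.41 to 0.43.

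The libraries of knockout and control did not overlap for 29 of 38 members in proximal GS4T (65.4% of all genes tested), 27 of 37 in distal GS4T (67.5%), 29 of 38 in proximal GA3T (56.4%) and 24 of 38 in distal GA3T (54.3%). Of these, 19, 16, 24 and 19 members were higher in the knockout, against 34%, 34.4%, 28.8% and 27.5% of all genes. With 2 libraries in a group such a separation is common over all genes, and the proximal GA3T members were more often separated upward than downward, 24 against 5, where all genes gave 28.8% and 27.5%.

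The knockouts were then set against each other in the joint fit on log2 CPM, which enters each GWTT library once. In the proximal colon 1 of 37 collagens passed, against 0.0788% of the 15223 genes tested. This was Col6a5, lower in GS4T than in GA3T by a log2 difference of -2.02 (adjusted p = 0.00437), which was not called without proximal GS4T replicate 1 (-1.90). Without distal GS4T replicate 1 or distal GS4T replicate 2 the count was 2 (0.105% of genes in each fit). In the distal colon 4 passed, against 2.07% of genes, and all were lower in GS4T (1.35% of genes), namely Col6a5 (-3.21, adjusted p = 0.000144), Col15a1 (-1.84, adjusted p = 0.00698), Col23a1 (-1.77, adjusted p = 0.013) and Col13a1 (-1.73, adjusted p = 0.04). The median log2 difference of collagens was -0.32 proximally and -0.31 distally, against 0.02 and -0.03 over all genes. The Col23a1 difference was lost without distal GA3T replicate 1 (-1.79), where 2 collagens passed (0.296% of genes). That of Col13a1 was lost without 8 of the 12 libraries, the furthest value being -1.09 without distal GA3T replicate 1. A limma fit of only the groups compared called 0 collagens proximally (0.0465% of genes), where Col6a5 lost its call, and 2 distally (0.106%), where Col15a1, Col23a1 and Col13a1 lost theirs and Col7a1 gained one. Col7a1 was higher in distal GS4T than in distal GA3T by 1.75, with an adjusted p of 0.0626, and Col4a1 by 0.68, with an adjusted p of 0.299.

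Segments were compared among the controls in the same fit. limma called 0 of 37 collagens between proximal and distal GWTT, against 1.29% of genes, and so did edgeR, while DESeq2 called 5 and an unadjusted p under 0.05 gave 8, against 1.1% of genes by edgeR, 3.58% by DESeq2 and 6.39% unadjusted. The median log2 difference was -0.19 for collagens and -0.02 for all genes. Lower proximally were Col24a1 (-1.66, adjusted p = 0.0549), Col22a1 (-1.19, adjusted p = 0.0568), Col12a1 (-1.21, adjusted p = 0.0595) and Col15a1 (-0.90, adjusted p = 0.0671), and higher proximally were Col6a6 (3.53, adjusted p = 0.131) and Col17a1 (2.10, adjusted p = 0.13). limma called none of them, and the 5 calls of DESeq2 were these genes but for Col15a1. These 6 were picked after their values were seen. The count of 0 became 2 without proximal GA3T replicate 1, proximal GA3T replicate 2, distal GA3T replicate 1 or distal GA3T replicate 2 (1.6%, 1.62%, 1.45% and 1.42% of genes), and 3 in a fit of only these groups (2.39%), namely Col12a1, Col6a6 and Col24a1. With replicate number as a block it was 4 (2.27%), namely Col22a1, Col12a1, Col6a6 and Col24a1. That block joined replicate 1 of proximal GWTT with replicate 1 of distal GWTT, which by Xist came from mice of different sex. It is thus not a pairing by mouse.

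The fold changes themselves were also compared between segments, as the proximal minus the distal log2 fold change. In GS4T limma and edgeR called 0 of 37 collagens (0.0328% of genes by each), DESeq2 4 (1.54%) and an unadjusted p 7 (4.96%), and limma called 1, Col13a1, without distal GA3T replicate 2 (0.145%). In GA3T limma and edgeR called 0 (0.0263% of genes by each), DESeq2 3 (0.736%) and an unadjusted p 5 (3.32%). Col22a1 had a difference of 1.56 in GS4T (adjusted p = 0.196) and of 1.5 in GA3T (adjusted p = 0.419), Col12a1 of 0.46 and 1.33, and Col7a1 of -1.43 and 1.22, none of them called by limma. The DESeq2 calls were Col22a1, Col15a1, Col24a1 and Col13a1 in GS4T and Col22a1, Col12a1 and Col24a1 in GA3T, all with differences above 0.

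Genes that modify, process and remove collagen were read from 7 lists. Of 13 procollagen hydroxylases and glycosyltransferases, 1 fell in each GS4T comparison, against 4.36% of all genes proximally and 6.08% distally. In GA3T limma and edgeR called 0, while DESeq2 and an unadjusted p gave 2 each proximally (6.31% and 9.46% of all genes) and 0 distally (5.03% and 7.77%). The gene that fell was Colgalt2, which adds galactose to hydroxylysine, at 39.1 and 50.5 CPM in proximal GWTT against 5.32 and 4.37 in proximal GS4T, and it fell by 3.19 there (adjusted p = 0.00433) and by 3.41 distally (adjusted p = 0.00363), both on the log2 scale. Colgalt2 was also lower in distal GS4T than in distal GA3T (-2.96, adjusted p = 0.0161). Of 9 chaperones and export genes, Creb3l1, a transcription factor of collagen secretion, rose in GS4T by 1.77 (adjusted p = 0.00882) and 1.03 (adjusted p = 0.0365), against 5.25% and 7.88% of all genes, though edgeR and DESeq2 did not call it distally. limma and edgeR called 0 of this list in GA3T, where DESeq2 and an unadjusted p gave 1 each proximally (6.31% and 9.46% of all genes) and 0 distally (5.03% and 7.77%). The collagen chaperone Serpinh1 was at -0.37 and -0.14 in GS4T. Among 8 genes of propeptide removal, 1 rose and 2 fell in proximal GS4T (5.25% and 4.36% of all genes), the protease Adamts14 (1.41, adjusted p = 0.0091), the protease Tll1 (-2.64, adjusted p = 0.0342) and the enhancer Pcolce2 (-3.40, adjusted p = 0.00432), and 1 fell in distal GS4T, Pcolce2 (-3.19, adjusted p = 0.000862), where 6.08% of all genes fell. The largest value of this list in GA3T was 3.26 for Tll2 proximally (adjusted p = 0.0728).

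Of 5 crosslinking oxidases, 2 rose in both GS4T comparisons, against 5.25% of all genes proximally and 7.88% distally. Lox was at 165 and 132 CPM in proximal GWTT, 582 and 605 in proximal GS4T and 205 and 397 in proximal GA3T, and at 149 and 120 CPM in distal GWTT, 760 and 995 in distal GS4T and 195 and 364 in distal GA3T. Its log2 fold changes in GS4T were 2 (adjusted p = 0.00523) and 2.72 (adjusted p = 0.00123), and distally it was higher in GS4T than in GA3T by 1.71 (limma, adjusted p = 0.04), a difference that edgeR did not call. Loxl2, which crosslinks type IV networks, rose by 1.97 (adjusted p = 0.00523) and 1.53 (adjusted p = 0.00384), and was at 1.73 in proximal GA3T (adjusted p = 0.0648). Of 10 tested fibril-associated proteins, 3 fell in proximal GS4T (4.36% of all genes), while 2 rose and 6 fell in distal GS4T (7.88% and 6.08%). Lum fell by 1.78 (adjusted p = 0.0283) and 2.04 (adjusted p = 0.00176), Tnxb by 1.71 (adjusted p = 0.0381) and 2.04 (adjusted p = 0.00259), and Dpt by 2.02 (adjusted p = 0.0104) and 1.76 (adjusted p = 0.00188). In distal GS4T, Dcn (-1.06), Ogn (-1.53) and Postn (-1.08) also fell and Fmod (2.37) and Thbs2 (1.27) rose. Dcn and Lum were counted among the fibroblast markers as well.

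Between distal GS4T and distal GA3T limma also called Lum (-1.49), Itga1 (1.5) and Mmp13 (3.38), where 2.07% of all genes were called, and edgeR did not call Mmp13. Among 9 tested collagen receptors, the integrin chain Itga1 rose in GS4T by 1.72 (adjusted p = 0.0084) and 2.04 (adjusted p = 0.000947) and the receptor kinase Ddr2 fell by 1.18 (adjusted p = 0.0087) and 1.47 (adjusted p = 0.00186), against 5.25% of all genes higher and 4.36% lower proximally and 7.88% and 6.08% distally. Of 9 genes of collagen breakdown, counting the inhibitor Timp1, 4 rose in each GS4T comparison (5.25% and 7.88% of all genes) and 1 in proximal GA3T (0.345%). Both GS4T counts include Mmp8, which proximally passed the limit on mean count through the GS4T libraries, so the counts are a description. limma and edgeR called 0 in distal GA3T, where DESeq2 and an unadjusted p gave 3 each (5.03% and 7.77%). Mmp13, a collagenase, was at 1.47 and 1.61 CPM in proximal GWTT, 133 and 31.7 in proximal GS4T and 39.0 and 95 in proximal GA3T, and at 3.87 and 4.53 CPM in distal GWTT, 924 and 415 in distal GS4T and 37.3 and 94.2 in distal GA3T. It rose by 5.34 (adjusted p = 0.0118), 7.21 (adjusted p = 0.00061) and, in proximal GA3T, 5.27 (adjusted p = 0.0489). The GA3T call was lost with edgeR, with a pseudocount of 0.1 (5.31), with upper-quartile rescaling (5.24) and without proximal GWTT replicate 1 (5.22), proximal GWTT replicate 2 (5.32) or proximal GA3T replicate 2 (4.64). The neutrophil collagenase Mmp8 rose in GS4T too (5.46 and 7.06), beside the neutrophil markers S100a8 and S100a9, which went from 0.119 to 1.13 CPM in GWTT to 10.1 to 71.0 in GS4T. Their part in the Mmp8 result was not tested. A pseudocount of 0.1 in place of 1 moved the proximal Mmp8 value to 7.22 and ended its call, so its proximal GWTT counts were near 0. Mmp8 thus passed the limit on mean count there through the GS4T libraries. Mmp14 rose in proximal GS4T (1.21, adjusted p = 0.0139), Mmp9 in distal GS4T (3.99, adjusted p = 0.00909) and the inhibitor Timp1 in both (1.88, adjusted p = 0.0103, and 1.78, adjusted p = 0.0315).

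Calls in these lists also depended on single libraries. Without proximal GS4T replicate 1 the genes no longer called in proximal GS4T were Creb3l1 (1.73), Adamts14 (1.32), Tll1 (-2.59), Lox (2.06), Loxl2 (1.95), Lum (-1.30), Tnxb (-1.31), Dpt (-1.80), Ddr2 (-1.12), Itga1 (1.54), Mmp8 (4.95), Mmp13 (4.35) and Mmp14 (1.18). Without proximal GS4T replicate 2 they were Creb3l1 (1.81), Adamts14 (1.51), Tll1 (-2.69), Tnxb (-2.11), Ddr2 (-1.23), Mmp8 (5.96) and Mmp14 (1.23). Tll1 and Tnxb were also not called without proximal GWTT replicate 1 (-2.71 and -1.84) or replicate 2 (-2.58 and -1.57). Tll1 was not called with replicate number as a block either (-2.64). Colgalt2, Pcolce2 and Timp1 were called in proximal GS4T without any 1 library. In distal GS4T, Dcn lost its call without any 1 of the 4 libraries, with values from -1.09 to -1.02, and in the joint fit (-1.08). Creb3l1 lost its distal call without GWTT replicate 2 (0.63), GS4T replicate 1 (1.08) or GS4T replicate 2 (0.98), and Fmod without GWTT replicate 1 (2.85), GWTT replicate 2 (1.89) or GS4T replicate 2 (1.59). Postn did so without GWTT replicate 1 (-1.10), GWTT replicate 2 (-1.06) or GS4T replicate 1 (-1.13), and Timp1 without GWTT replicate 2 (1.33) or GS4T replicate 1 (1.26). Mmp8 was not called proximally with a pseudocount of 0.1 (7.22), nor Timp1 in the joint fit without the libraries low in Gli1 (1.62) or in Xist (1.89).

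Between distal GS4T and distal GA3T, Colgalt2, Lox, Lum, Itga1 and Mmp13 all lost their call in a fit of only these groups, without distal GS4T replicate 2 and without distal GA3T replicate 1, where the values were -2.58, 1.26, -1.43, 1.09 and 2.72. All of them but Colgalt2 also lost it with a term for Xist and with replicate number as a block. They lost it too without distal GWTT replicate 1, distal GWTT replicate 2 or distal GS4T replicate 1. Lox was further lost without either proximal GS4T library, Mmp13 without either proximal GWTT library and Lum without distal GA3T replicate 2.

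The 5 other genes whose log2 CPM followed that of Col3a1 most closely over the 12 libraries, out of 15223, were Mcrip1 (Pearson r = 0.95), Tbx4 (0.93), Mmp14 (0.92), Pofut2 (0.92) and 2310069B03Rik (0.92). These values are a description, over libraries that share genotype and segment. Tbx4, a transcription factor of limb and lung mesenchyme, was at 2.02 and 0.803 CPM in proximal GWTT and at 7.45 to 22.8 CPM in the other 10 libraries.

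Several collagen genes lie in pairs in the mouse genome (GENCODE annotation of GRCm38). Col4a1 (chr8:11198423-11312826, minus strand) and Col4a2 (chr8:11312805-11449287, plus strand) diverge from starts 21 bases apart and overlap by 22 bases. Col4a3 and Col4a4 on chromosome 1 diverge from starts 72 bases apart, and Col4a5 and Col4a6 on chromosome X from starts 1309 bases apart. The strand setting of the counting was not stated, so reads in an overlap cannot be assigned to a strand. The windows at the starts of the pair that rose in GS4T (Col4a1, Col4a2) and of the pair that fell distally (Col4a5, Col4a6) are shown, since both members of each pair were called in the same direction in distal GS4T. They come from RefSeq (GRCm38.p6), from 250 bases before to 50 bases after the start, in the direction of the gene: Col4a1 at chr8:11312777-11313076 (minus), Col4a2 at chr8:11312555-11312854 (plus), Col4a6 at chrX:141474027-141474326 (minus) and Col4a5 at chrX:141475169-141475468 (plus). Capitals mark matches on either strand to the motifs counted for all members.
Col4a1: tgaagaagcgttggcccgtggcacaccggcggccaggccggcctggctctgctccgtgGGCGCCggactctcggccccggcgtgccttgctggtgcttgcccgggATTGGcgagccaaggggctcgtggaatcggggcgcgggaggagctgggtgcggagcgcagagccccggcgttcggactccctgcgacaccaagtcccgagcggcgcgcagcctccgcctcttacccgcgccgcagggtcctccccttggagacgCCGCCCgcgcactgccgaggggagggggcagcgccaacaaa
Col4a2: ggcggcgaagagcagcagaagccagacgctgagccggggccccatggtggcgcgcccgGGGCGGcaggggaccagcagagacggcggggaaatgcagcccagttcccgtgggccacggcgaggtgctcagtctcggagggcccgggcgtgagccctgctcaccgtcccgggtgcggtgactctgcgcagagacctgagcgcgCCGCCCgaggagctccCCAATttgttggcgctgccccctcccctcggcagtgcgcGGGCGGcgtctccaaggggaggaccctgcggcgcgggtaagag
Col4a6: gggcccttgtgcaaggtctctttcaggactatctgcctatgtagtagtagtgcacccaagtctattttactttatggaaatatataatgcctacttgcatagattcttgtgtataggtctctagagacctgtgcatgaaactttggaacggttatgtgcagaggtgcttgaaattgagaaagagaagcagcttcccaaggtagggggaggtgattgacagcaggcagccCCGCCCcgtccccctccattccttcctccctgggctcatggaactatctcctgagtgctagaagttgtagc
Col4a5: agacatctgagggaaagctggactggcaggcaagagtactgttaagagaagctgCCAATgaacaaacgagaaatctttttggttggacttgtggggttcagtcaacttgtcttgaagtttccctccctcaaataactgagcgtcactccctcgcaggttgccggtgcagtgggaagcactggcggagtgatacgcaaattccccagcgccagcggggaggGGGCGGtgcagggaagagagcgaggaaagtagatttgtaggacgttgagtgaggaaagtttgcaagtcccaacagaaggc

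Windows of this kind were at hand for 33 of the 41 members, 35 windows in all, among 32817 for all genes. Col6a2 and Col18a1 each had an additional window. The windows of Col4a1 and Col4a2 overlap and share a GGGCGG match that was counted for both, so the windows are not all separate promoters. GGGCGG, the core of a GC box, was in 23 of the 35 collagen windows (65.7%) and in 35.6% of all windows, and the GC content had a median of 60% against 52.7%. CCAAT was in 12 (34.3% against 37.4%), and TATAAA in 5 (14.3% against 13.6%). GGCGCC, bound by SMAD proteins in BMP target genes, was in 5 (14.3% against 11.9%), the SMAD motifs CAGACAGAC and GTCTAGAC in 0 (0.753% and 0.213% of all windows). A match describes letters in the window and is not a bound site, and no match says only that these letters are not in this window.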

How the data were processed

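Stromal libraries were made from sorted tdTomato+ cells of the proximal and distal colon with a SMARTER mRNA kit, aligned by the authors with STAR 2.5.3 to mm10 and normalized with DESeq2 1.28.1. The deposited tables hold the signal of each gene as normalized counts, 1 table per segment and knockout with 2 control and 2 knockout libraries. The counting tool, annotation and strand setting are not stated. Dividing each library by its smallest step between values gave back whole reads, within a tolerance of 0.1, in 100 percent of genes of every library, and levels in CPM were made from these. GWTT reads were equal in the tables of both knockouts for 15934 of 15938 shared genes proximally and 16186 of 16187 distally.

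Each knockout was compared with GWTT by limma 3.58.1 (trend, empirical Bayes) on log2(normalized count + 1) over genes with a mean of at least 10, with p-values adjusted over all genes tested. Segments and knockouts were compared in a joint limma fit of 12 libraries on log2 CPM with a prior count of 1. A gene was called at an adjusted p under 0.05 and a log2 fold change of at least 1 in size. edgeR 4.0.16 and DESeq2 1.42.0 were run as alternatives, with R 4.3.3 and Python 3.11.15. Other alternatives were the pseudocount or prior count, filter, scaling, a block for replicate number and leaving out each library. The genes named were members called in any of 9 comparisons, the 10 members highest per kilobase in GWTT, the 3 highest and 3 lowest members of each knockout comparison, the target genes, the called members of each pathway list and its largest change, and the 5 genes most like the first member. Others were chosen after their values were seen. Members and lists were chosen with earlier results of these data known. The labels give the tamoxifen route as subcutaneous.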

Additional observations from a re-analysis of the deposited data

Results flagged for a closer look

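The fold changes of 2 minor collagens in GS4T lay on opposite sides of 0 in the 2 segments, with every proximal GS4T library above and every distal GS4T library below the GWTT libraries of its segment. For Col24a1, a minor fibrillar chain, the log2 fold change was 1.04 proximally and -0.89 distally, a difference of 1.96 (limma, adjusted p = 0.221). For Col13a1, a transmembrane chain, it was 0.41 proximally and -1.53 distally, a difference of 1.97 (limma, adjusted p = 0.213). limma and edgeR called neither difference, DESeq2 called both, and limma called that of Col13a1 without distal GA3T replicate 2. The cause was not tested.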

How the results depend on the processing

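Of 826 values of named genes recomputed under alternatives, 702 kept their direction and side of the threshold, 89 no longer passed it, 35 newly passed it and 0 reversed. Counts of called collagens without 1 library ranged from 3 to 14 in proximal GS4T, 7 to 15 in distal GS4T, 0 to 6 in proximal GA3T, 0 to 8 in distal GA3T, 0 to 2 between GWTT segments, 0 to 1 for the segment difference in GS4T, 0 to 0 for that in GA3T, 0 to 2 between proximal knockouts and 2 to 5 between distal knockouts. The share of all genes called in these fits ranged, in the same order, from 0.775% to 14.1%, 7.82% to 12.6%, 0% to 1.52%, 0% to 4.87%, 0.0329% to 1.62%, 0% to 0.145%, 0.0197% to 0.0395%, 0.0394% to 0.138% and 0.296% to 2.13%. In what follows, the share of all genes called is in parentheses after a count. A group left with 1 library was assumed to vary like the others. In proximal GA3T (3 collagens) a pseudocount of 10 gave 5 (0.567%), a pseudocount of 0.1 and upper-quartile rescaling 2 each (0.0391% and 0.0521%, both without Col18a1), edgeR 0 (0%), DESeq2 16 (6.31%) and an unadjusted p 19 (9.46%). In distal GA3T (0 collagens by limma and by edgeR) a pseudocount of 10 gave 2 (0.0714%), upper-quartile rescaling 1 (0.013%), DESeq2 8 (5.03%) and an unadjusted p 8 (7.77%). Between GWTT segments (0 by limma and by edgeR) TMM scaling gave 1 (1.29%), a prior count of 10 gave 2 (1.41%), a fit of only these groups 3 (2.39%), DESeq2 5 (3.58%) and an unadjusted p 8 (6.39%). For the segment difference DESeq2 gave 4 in GS4T (1.54%) and 3 in GA3T (0.736%), and an unadjusted p 7 (4.96%) and 5 (3.32%), where limma and edgeR gave 0. Between proximal knockouts (1) a fit of only these groups gave 0 (0.0465%), DESeq2 4 (1.12%) and an unadjusted p 7 (3.04%). Between distal knockouts (4) they gave 2 (0.106%), 8 (5.09%) and 10 (7.8%). A joint fit gave 15 in proximal GA3T (4.55%) and 5 in distal GA3T (0.48%), and 3 changes to it were chosen after seeing the data. Without the libraries low in Gli1 it gave 4 (0.296%) and 3 (0.237%), and 3 between GWTT segments (1.33%). With a term for Xist it gave 15 (5.49%) and 6 (1.84%), and without the libraries low in Xist 11 (5.45%) and 6 (4.29%), and 2 between distal knockouts (0.561%). The cause of these shifts was not tested.

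The labels number the replicates, but no mouse is said to be shared between groups. By Xist, replicate 1 of proximal GWTT and replicate 1 of distal GWTT came from mice of different sex. A block for replicate number therefore does not pair these libraries by mouse. With replicate number as a block, limma called 15 collagens in proximal GS4T (10.6% of all genes), 16 in distal GS4T (15.3%), 7 in proximal GA3T (1.65%), 5 in distal GA3T (0.402%), 4 between GWTT segments (2.27%), 0 for the segment difference in GS4T (0.0985%) or GA3T (0.0197%), 1 between proximal knockouts (0.0657%) and 5 between distal knockouts (1.76%). Deviations of same-numbered libraries from their group means correlated across genes at 0.12, 0.10, 0.11 and 0.19 in the 4 tables, and between segments at 0.21 in GWTT, 0.28 in GS4T and 0.40 in GA3T. Under the block Col13a1, Lox, Lum, Itga1 and Mmp13 lost their call between distal knockouts, where Col4a5 and Col4a6 gained one. Tll1 lost its call in proximal GS4T. With 2 libraries a group and no shared mouse in the labels, the numbers were taken as names only.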
